A study of Mus musculus with 3 samples.

Results

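The 10 genes described here act in purine salvage and breakdown and were read in the proximal jejunum, an upper stretch of the small intestine, of mice lacking the transcription factor gene Sox4. They are Nt5e, Ampd3, Ada, Adk, Pnp, Pnp2, Gda, Xdh, Hprt and Aprt, taken by symbol from the array annotation, and all 10 of them were found among the 20738 genes named on the array. They were carried by 23 array features, 5 of the genes by a single feature. The list was put together by function around Pnp2, which was chosen by its low ratio on these same arrays. The ratios of the 10 genes are therefore a description. Where counts from the fit over all genes are given for them, these rest on the same ratios and test nothing.

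The knockout RNA came from 3 mice labelled Sox4 vilCre KO, 1 mouse on each array. The labels name villin-Cre, a recombinase driven in the intestinal epithelium, so other cells of whole jejunum keep Sox4. The wild-type RNA, also of whole proximal jejunum, shared each array with 1 knockout RNA, and the labels give neither its Cre status nor whether it was pooled, nor any age, sex or strain. Knockout RNA carried Cy5 and wild-type RNA Cy3 on all 3 arrays, so that a dye effect particular to a gene and an effect of genotype cannot be told apart. Every value below is a log2 ratio of knockout over wild type on 1 array, or its mean ± SD over n = 3 arrays. The sign rests on the labelled dyes and the base on the range of the values, as neither is stated, and if the table held Cy3 over Cy5, all signs, ranks and shares of higher and lower genes would change places. In whole tissue, fewer cells of a type and less RNA per cell cannot be told apart.

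Purine nucleotides are made from small precursors or rebuilt from bases and nucleosides by salvage. In breakdown, AMP passes through adenosine or IMP to inosine, phosphorylases release hypoxanthine and guanine, and xanthine dehydrogenase leads these to uric acid. The small intestine meets large amounts of dietary nucleic acid and is rich in enzymes of this route. In mouse villi, cells near the tip are known for Nt5e, Ada and the nucleoside carrier Slc28a2.

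Pnp2 stood apart from the other genes. Its single feature had ratios of -3.45, -3.52 and -3.05 on arrays 1, 2 and 3. The mean was -3.34 ± 0.25, a level 10.1-fold lower in knockout than in wild-type jejunum if the ratios are log2. Pnp2 encodes a second purine nucleoside phosphorylase of the mouse, an enzyme family that splits inosine and guanosine into base and ribose phosphate. Counted from the lowest mean, it ranked 7 of 20738 genes. The arrays lay close together relative to the size of the ratio, and none came near 0.

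In the fit over all genes, limma with a Benjamini-Hochberg adjusted p under 0.05, 0.328% of all genes were called, 0.222% as lower. Pnp2 was the 1 of the 10 among them, which its choice by this ratio had already fixed. Unadjusted, 3 of the 10 had a p under 0.05, against 26.3% of all genes. Ratios had 1 sign on all 3 arrays in 6 of the 10 genes, against 50.6% of all genes, which is a share near the background. The median of the 10 means was -0.07, beside -0.03 over all genes.

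**Figure D1:**
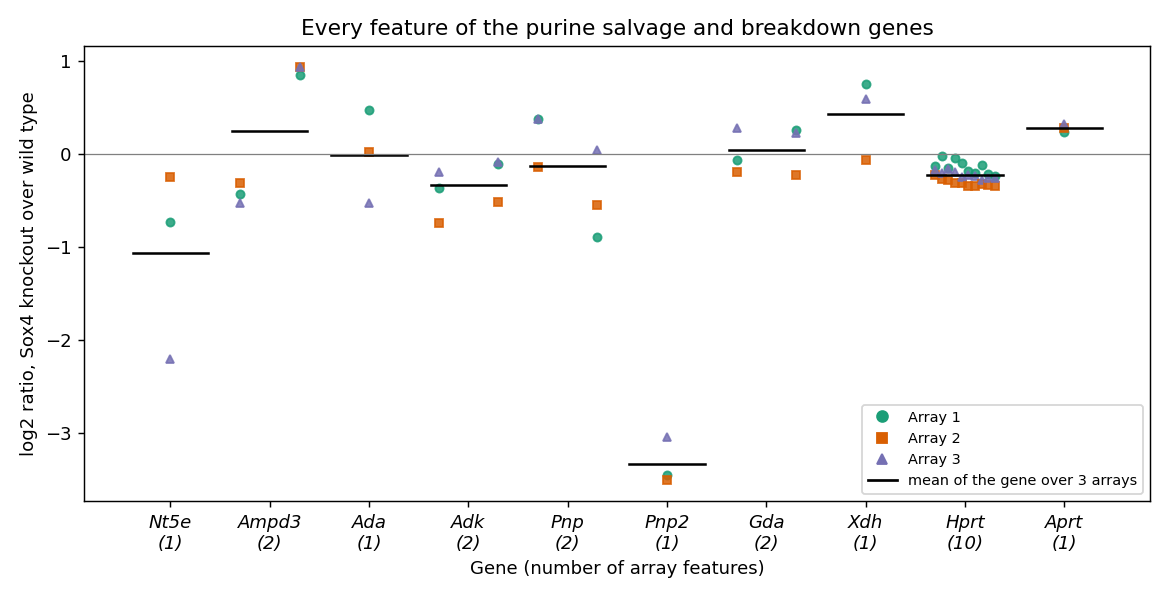
Log2 ratio of knockout over wild type (vertical axis) for every array feature of the 10 genes, with the number of features under each name. Points are single features on arrays 1, 2 and 3 and black lines are gene means. Pnp2 stands near -3.34, Nt5e is spread between -0.25 and -2.21, and the features of Ampd3 lie on opposite sides of 0.

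Pnp, the neighbouring copy with the established phosphorylase function, did not share the ratio of Pnp2. Its gene means were -0.25, -0.34 and 0.21 (mean -0.13 ± 0.30), and the arrays fell on either side of 0. The features of Pnp differed from each other. Feature 37630 had 0.38, -0.14 and 0.38, while feature 37740 had -0.89, -0.54 and 0.05. The gap between their means was 0.67, larger than in 90.1% of the 4699 genes with 2 features, whose median gap was 0.24. No feature of Pnp reached the range of Pnp2 on any array. Pnp and Pnp2 are related copies, and whether a feature of one also binds RNA of the other was not tested.

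The RefSeq promoter of Pnp, from 250 bases before to 50 bases after the gene start, is shown because this gene lies beside Pnp2 on chromosome 14. Capitals mark CG dinucleotides, the sites where DNA methylation acts in mammals.
Pnp, chr14:50944053-50944352 (GRCm38.p6, plus strand): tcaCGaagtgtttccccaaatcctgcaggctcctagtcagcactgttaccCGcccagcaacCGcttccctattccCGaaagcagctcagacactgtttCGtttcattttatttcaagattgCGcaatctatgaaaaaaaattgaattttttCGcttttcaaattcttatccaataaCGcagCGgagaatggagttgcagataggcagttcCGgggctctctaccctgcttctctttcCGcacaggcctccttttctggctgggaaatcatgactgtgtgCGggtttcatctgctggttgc
It holds 12 CG dinucleotides, more than 60.4% of the 32851 RefSeq promoters of the same length, whose median was 7.

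The genes around Pnp2 were read in the order of the RefSeq gene table, 5 measured genes on each side. Before Pnp2 these were Parp2 (0.20 ± 0.05), Osgep (0.07 ± 0.15), Apex1 (0.43 ± 0.04), Pip4p1 (0.01 ± 0.29) and Pnp. Apex1 encodes a DNA repair endonuclease and Parp2 a poly(ADP-ribose) polymerase. After it came the ribonuclease family genes Rnase10 (-0.04 ± 0.24), Rnase9 (-0.05 ± 0.26), Rnase11 (-0.19 ± 0.31) and Rnase12 (-0.26 ± 0.06), then the olfactory receptor gene Olfr750 (-0.41 ± 0.39). Limma called 0 of these 10 neighbours, and 1 of them, Apex1, had an unadjusted p under 0.05 (adjusted p = 0.0986). The means of the neighbours ran between -0.41 and 0.43, so the low ratio of Pnp2 had no counterpart of its size in them.

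**Figure D2:**
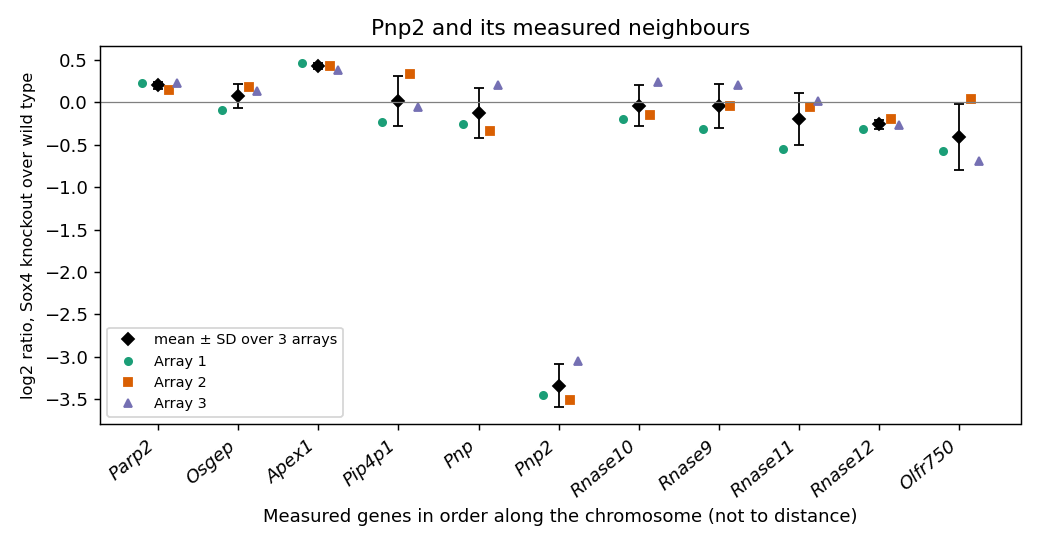
Log2 ratio of knockout over wild type (vertical axis) for Pnp2 and the 5 measured genes on each side, in chromosome order and not to distance. Diamonds and bars are mean ± SD over 3 arrays, coloured points the single arrays. Pnp2 lies at -3.34 and its neighbours between -0.41 and 0.43.

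The genes whose 3 ratios came closest to those of Pnp2, by Euclidean distance over the 3 arrays, were Car3 (distance 0.999), Uty (1.18), Ugt2b5 (1.62), Cyp2f2 (1.88) and Ssty2 (1.92). The median gene lay at a distance of 5.76. Car3, a carbonic anhydrase of adipose tissue and muscle, had -3.05, -3.97 and -3.85, and the Y-linked gene Uty had -2.64, -4.09 and -2.42. Distances over 3 arrays say only that ratios were alike in size.

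Markers of other sources of RNA were low on the same arrays as Pnp2. Of 10 adipocyte genes, limma called 5 lower (Adipoq, Cfd, Plin1, Retn and Car3), and 8 had an unadjusted p under 0.05, all lower. The 5 not called were nearer 0 or above it. They were Fabp4 (-0.63 ± 0.49), Pparg (-0.54 ± 0.11), Cidec (-0.436 ± 0.345), Lep (-0.12 ± 0.29) and Lipe (0.21 ± 0.20). Adipoq, the adiponectin gene, averaged -4.69 ± 0.41 and Cfd, the adipsin gene, -5.95 ± 0.65. Of 6 measured erythroid genes, limma called 2 lower, Hbb-bs (-1.23 ± 0.19) and Hbb-bt (-1.59 ± 0.39). Unadjusted, 5 of the 6 had a p under 0.05, all lower. Hba-a1 (-1.34 ± 0.46), Hba-a2 (-1.37 ± 0.52) and Alas2 (-1.14 ± 0.44) were also below 0 on every array, while Slc4a1 averaged -0.09 ± 0.11. Of 4 measured sex-linked genes, Y-linked Eif2s3y (-7.28 ± 0.25) and Uty fell and Xist (1.71 ± 0.18), which coats the inactive X chromosome, rose. Of these 10 marker calls, 4 remained without array 1, 8 without array 2 and 1, that of Eif2s3y, without array 3. All 4 measured sex-linked genes kept 1 sign on every array. A difference in sex between the 2 RNAs and an effect of genotype therefore cannot be told apart. The part of fat, blood and sex in the ratio of Pnp2 was not tested. Macrophage, smooth muscle and endothelial lists had 0 members called by limma, and 0, 2 and 0 members with an unadjusted p under 0.05. Of 9 lymphocyte genes limma called 0 and 4 had an unadjusted p under 0.05, 3 lower and 1 higher. Among the lower were the T cell genes Cd8b1 (-0.64 ± 0.21) and Cd8a (-0.47 ± 0.14), and the higher was the B cell gene Cd79a (0.78 ± 0.54). T cell genes did not share 1 direction, as Cd4 was above 0 on every array (0.157, 0.342 and 0.203). Cd3e lay on either side of 0 (0.098, 0.136 and -0.532). Levels of defining markers could not be read from ratios, so the labelled tissue was not checked against them.

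Nt5e encodes CD73, the cell surface enzyme that turns AMP outside the cell into adenosine. Its single feature had -0.73, -0.25 and -2.21 on arrays 1, 2 and 3 (mean -1.06 ± 1.02). All arrays were below 0, but array 3 stood apart, and the mean was -0.49 without it. The spread over arrays was wider than in 98.9% of all genes.

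Ada encodes adenosine deaminase, which converts adenosine to inosine. It had 0.47, 0.02 and -0.52 (mean -0.01 ± 0.50), so the arrays lay on either side of 0 and the mean near 0 hides a spread wider than in 89.4% of genes. Like Nt5e it was lowest on array 3. Of the 10 genes 3 were lowest there, Ampd3 being the other, beside 29.3% of all genes, a share near the background. Slc28a2, a concentrative nucleoside carrier, had -0.31, -0.34 and -0.79 (mean -0.48 ± 0.27, limma adjusted p = 0.122) and was lowest on array 3 too.

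Among the 7 measured genes of the villus tip list, 3 were lowest on array 3, where 29.3% of all genes were. These were the apolipoprotein genes Apoa4 (-0.02, 0.27 and -0.90), Apob (0.23, -0.44 and -0.97) and Apoa1 (0.43, 0.69 and 0.10). The other members followed other orders, with Klf4, a transcription factor gene, lowest on array 1 (-1.15, -0.48 and -0.57). Fos, an immediate early gene, was lowest on array 2 (-0.84, -0.92 and -0.35). The list's array medians were -0.15, -0.44 and -0.35, so it was not lowest as a whole on array 3. Limma called 0 of its members, and 3 had an unadjusted p under 0.05, 1 higher and 2 lower. The 10 genes of the absorptive enterocyte list also had 0 called and 3 with an unadjusted p under 0.05, all higher, with Anpep at 0.83 ± 0.15 and Vil1 at 0.48 ± 0.14. Its median was -0.20, as 6 means were below 0, among them Lct (-0.47 ± 0.45), and its array medians were 0.04, 0.01 and -0.21. The lymphocyte list likewise had its lowest array median on array 3, with 0.15, -0.05 and -0.35. Of its 9 measured genes, 5 were lowest there, while Cd8a (-0.433, -0.62 and -0.353) and Ms4a1 (0.666, -0.142 and 1.061) were highest there. The part of villus cell and lymphocyte content in the ratio of Nt5e was not tested.

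**Figure D3:**
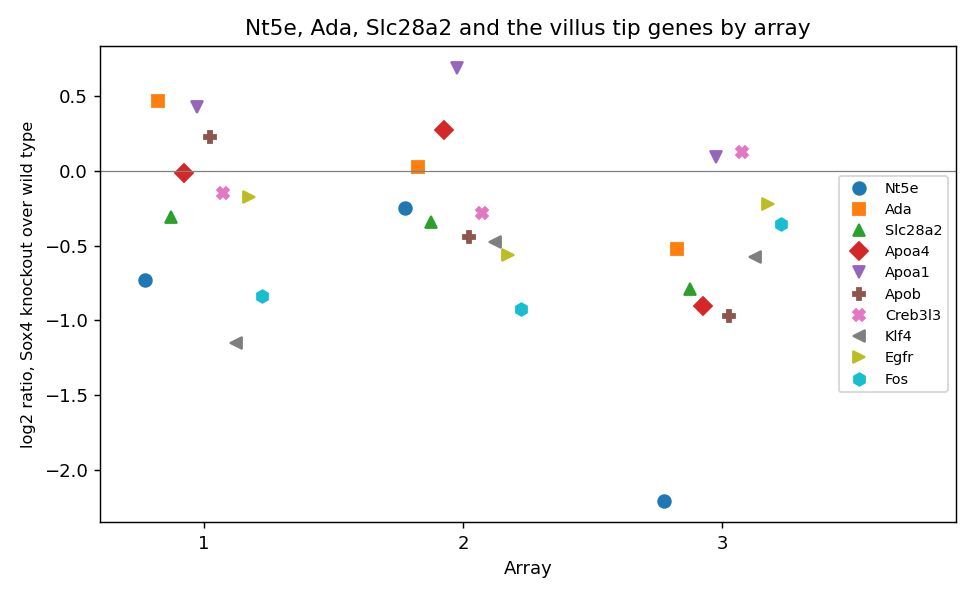
Log2 ratio of knockout over wild type (vertical axis) on each array for Nt5e, Ada, Slc28a2 and the 7 measured villus tip genes, spread sideways for legibility. On array 3 Nt5e is at -2.21, Ada at -0.52 and Apob at -0.97, while Fos and Klf4 are lower on another array.

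Adk encodes adenosine kinase, which returns adenosine to AMP. Its gene means were -0.24, -0.63 and -0.13 (mean -0.33 ± 0.26), below 0 on each array and lowest on array 2. Feature 3299 averaged -0.43 ± 0.28 and feature 24383 -0.23 ± 0.25. Their gap of 0.20 was smaller than the median gap of genes with 2 features, and each feature was lowest on array 2.

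Ampd3 encodes an AMP deaminase, which turns AMP into IMP, and is known as the form of red blood cells. As a gene it had 0.21, 0.32 and 0.21 (mean 0.25 ± 0.06), a value that no single feature showed. Feature 59770, annotated to the RefSeq transcript, had 0.86, 0.94 and 0.94 (mean 0.91 ± 0.05). Feature 29405, annotated to a separate cDNA, had -0.43, -0.31 and -0.52 (mean -0.42 ± 0.11). One feature was above 0 and the other below 0 on every array, and neither overlapped the other. The gap of 1.33 was larger than in 99.3% of genes with 2 features and lay between 1.25 and 1.46 on single arrays, so the gene mean averages unlike readings. Of the 6 measured erythroid genes, 5 were below 0 on every array, as feature 29405 was, while feature 59770 was above. Which part of the transcripts each feature reads was not determined.

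RefSeq lists 3 starts for Ampd3, shown because the features of this gene disagree. Capitals again mark CG dinucleotides.
Ampd3 start 1, chr7:110768372-110768671 (GRCm38.p6, plus strand): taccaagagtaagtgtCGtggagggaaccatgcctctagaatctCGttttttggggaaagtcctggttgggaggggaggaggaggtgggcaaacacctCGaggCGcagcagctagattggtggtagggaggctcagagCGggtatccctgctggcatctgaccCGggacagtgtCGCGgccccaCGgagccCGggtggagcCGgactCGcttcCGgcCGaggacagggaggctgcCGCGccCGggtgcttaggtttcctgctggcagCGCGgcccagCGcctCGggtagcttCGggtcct
Ampd3 start 2, chr7:110772354-110772653 (GRCm38.p6, plus strand): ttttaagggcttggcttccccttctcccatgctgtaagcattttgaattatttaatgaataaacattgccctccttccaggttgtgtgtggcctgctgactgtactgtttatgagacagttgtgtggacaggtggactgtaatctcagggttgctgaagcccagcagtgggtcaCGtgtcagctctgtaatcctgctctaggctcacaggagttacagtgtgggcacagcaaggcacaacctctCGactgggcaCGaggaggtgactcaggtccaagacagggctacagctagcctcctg
Ampd3 start 3, chr7:110773386-110773685 (GRCm38.p6, plus strand): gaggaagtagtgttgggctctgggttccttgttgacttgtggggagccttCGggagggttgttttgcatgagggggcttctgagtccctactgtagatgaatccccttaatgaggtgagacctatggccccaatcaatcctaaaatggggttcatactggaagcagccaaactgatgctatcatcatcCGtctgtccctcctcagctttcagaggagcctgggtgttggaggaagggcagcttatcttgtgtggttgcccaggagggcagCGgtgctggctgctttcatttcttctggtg
The first start holds 22 CG dinucleotides, more than 76.9% of all promoters, while starts 2 and 3 hold 3 each, more than 23.3% of them. The starts thus differ in CG content, and the features are not assigned to them.

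The RefSeq promoter table held entries for 8 of the 10 genes, 11 promoters in all, and for neither Pnp2 nor Xdh. They were searched on both strands for AACAAT and AACAAAG, letter forms of the site that Sox proteins bind, neither of which contains the other. Neither was found in any of the 11, and 10.7% and 5.85% of all promoters held them. With shares this small, 11 promoters of 8 genes are too few to tell absence from the background.

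Gda encodes guanine deaminase, which turns guanine into xanthine. It had 0.10, -0.21 and 0.26 (mean 0.05 ± 0.24), around 0, and its features had a gap of 0.08. Xdh encodes xanthine dehydrogenase, the last enzyme before uric acid. Its single feature had 0.76, -0.06 and 0.59 (mean 0.43 ± 0.43), above 0 on arrays 1 and 3 and at about 0 on array 2.

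Hprt rebuilds IMP and GMP from hypoxanthine and guanine and lies on the X chromosome. It was read by 10 features, which ran between -0.24 and -0.02 on array 1, between -0.35 and -0.23 on array 2 and between -0.28 and -0.17 on array 3. Every feature was below 0 on each array, and the gene mean was -0.22 ± 0.09 over n = 3 arrays. All 10 features are annotated to the same RefSeq transcript, and whether they are copies of 1 probe was not determined. They are repeated readings of the same 3 arrays and do not raise n. Gene means had 1 sign on all 3 arrays in 50.6% of all genes. The SD between features of an array was 0.07, 0.04 and 0.04, so readings of 1 gene within an array were close. Aprt, which rebuilds AMP from adenine, had 0.24, 0.28 and 0.33 (mean 0.28 ± 0.04). Its spread over arrays was wider than in only 3.12% of genes. Hprt and Aprt, the salvage enzymes for bases, therefore lay on opposite sides of 0 on every array.

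The other genes of the route were taken from lists by function, 86 measured of 90 listed. Limma called 0 of the 86, and 30 had an unadjusted p under 0.05, 10 higher and 20 lower, where 26.3% of all genes had one (12.0% higher and 14.3% lower). Their median was -0.06, beside -0.03 over all genes. Means ran from -0.80 to 0.74, so none approached Pnp2.

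De novo synthesis builds the purine ring on ribose phosphate, and 6 of its 7 genes had a mean above 0 (median 0.20, 3 with an unadjusted p under 0.05, all higher). Gart, an enzyme of several steps of this route, had 0.91, 0.65 and 0.55 (mean 0.70 ± 0.19, limma adjusted p = 0.0687). Prps2, which makes the ribose phosphate donor, averaged 0.54 ± 0.21, and Atic, which closes the ring, 0.51 ± 0.40. Prps1 averaged 0.20 ± 0.29. The array medians of the list were 0.49, 0.16 and 0.22. Of 9 measured genes of proliferating crypt cells, 7 also had a mean above 0, with a list median of 0.54 and array medians of 0.64, 0.34 and 0.58. Limma called 0 of the 9, and 8 had an unadjusted p under 0.05, 6 higher and 2 lower, against 26.3% of all genes. Cenpf, a mitosis gene, averaged 0.98 ± 0.21. The 2 lower ones were the replication genes Pcna (-0.45 ± 0.20) and Mcm6 (-0.33 ± 0.22), below 0 on every array. The part of proliferating cells in the ratios of de novo genes was not tested.

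Salvage and interconversion held 20 measured genes of 21 with a median of 0.07, 2 higher and 3 lower at an unadjusted p under 0.05. Adsl, which works in de novo synthesis and in turning IMP into AMP, averaged 0.60 ± 0.20 (limma adjusted p = 0.0816). The adenylosuccinate synthetase genes, which precede it in that conversion, had means below 0, Adssl1 at -0.57 ± 0.13 and Adss at -0.36 ± 0.10. Ak1, an adenylate kinase gene, had -0.42, -0.37 and -0.48 (mean -0.42 ± 0.05).

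Nucleotidases, ectonucleotidases and alkaline phosphatases, 21 genes that remove phosphates as Nt5e does, had a median of -0.14. Of these 9 had an unadjusted p under 0.05, 3 higher and 6 lower. Nt5c1b, a cytosolic nucleotidase gene, had 0.75, 0.84 and 0.62 (mean 0.74 ± 0.11, limma adjusted p = 0.0640). Entpd5 had -0.65, -0.78 and -0.61 (mean -0.68 ± 0.09, limma adjusted p = 0.0649). Entpd6 averaged 0.60 ± 0.22 and the mitochondrial nucleotidase gene Nt5m 0.48 ± 0.09. The list was split, with 7 means above 0 and 14 below.

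Among 13 transporters the median was -0.01, with 1 higher and 2 lower at an unadjusted p under 0.05. Abcg2, which exports urate, averaged -0.56 ± 0.29 (limma adjusted p = 0.101), and the equilibrative nucleoside carriers Slc29a2 and Slc29a1 averaged 0.53 ± 0.26 and 0.26 ± 0.07. Slc29a2 and Slc29a1 were above 0 on every array, while Slc28a2 and Abcg2 were below. Uric acid breakdown and molybdenum enzymes, 12 genes, had a median of -0.10 with 3 lower at an unadjusted p under 0.05. Urah, which acts after urate oxidase, averaged -0.62 ± 0.38, Aox1, an aldehyde oxidase related to Xdh, -0.45 ± 0.35, and the cofactor genes Mocs2 and Mocs3 -0.30 ± 0.05 and 0.30 ± 0.20. Adora3, 1 of 4 adenosine receptor genes measured here, had -0.44, -0.31 and -0.19 (mean -0.31 ± 0.13, limma adjusted p = 0.171).

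The 12 pyrimidine genes had a median of -0.00, with 1 higher and 5 lower at an unadjusted p under 0.05. The uridine phosphorylases, pyrimidine counterparts of Pnp and Pnp2, were below 0 on each array. Upp1 had -0.40, -0.60 and -0.62 (mean -0.54 ± 0.13, limma adjusted p = 0.0822). Upp2 had -0.64, -1.27 and -0.50 (mean -0.80 ± 0.41, limma adjusted p = 0.0843). Tymp, the thymidine phosphorylase gene, had 0.33, 0.34 and 0.30 (mean 0.32 ± 0.02), and Upb1, of pyrimidine base breakdown, averaged -0.74 ± 0.62. Phosphorylase genes as a kind thus did not share 1 direction.

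**Figure D4:**
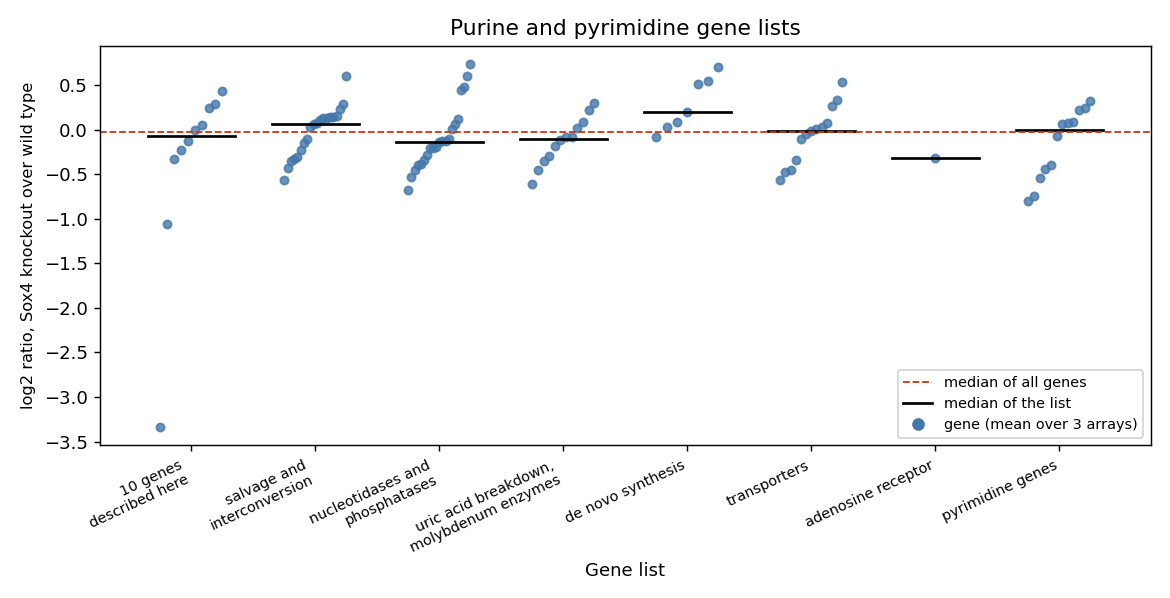
Log2 ratio of knockout over wild type (vertical axis) for the 10 genes described and for 7 lists of related genes. Points are gene means over 3 arrays, black lines list medians, the dashed line the median of all genes (-0.03). Pnp2 at -3.34 and Nt5e at -1.06 lie below every gene of the other lists, whose means run from -0.80 to 0.74. Nt5e is at -0.49 without array 3.

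Over the whole array, limma called 22 genes higher and 46 lower. Sox4 itself had -0.66, 0.18 and -0.46 (mean -0.31 ± 0.44, limma adjusted p = 0.332), so on array 2 the library labelled knockout was not below wild type for the mean of the 3 Sox4 features. The features disagreed, feature 53932 with -1.21, -0.72 and -0.93, feature 35668 with -0.82, 0.03 and -0.43, and feature 32792 with 0.06, 1.23 and -0.02. Pnp2 was lowest on array 2 (-3.52), as were Pnp, Adk, Xdh, Gda and Hprt, while Nt5e and Ampd3 had their highest ratios there. The share of all genes lowest on array 2 was not counted, so this order cannot be read as a trait of the genes described. Correlations of ratios between arrays over all features were 0.453, 0.514 and 0.438, given as a description.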

How the data were processed

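The authors' deposited table holds log ratios, taken here as log2 of Cy5 over Cy3, for 62976 features on 3 Agilent arrays, and no normalization, background step, log base or direction is given in the sources used here. Array medians were 0.007, 0.003 and 0.011, so the authors' values were centred already. Values between -7.44 and 5.62 are too wide for log10 of a scanner ratio, while the natural logarithm would also be possible and would make each fold larger. No intensities were used, so dim features were kept. Precision is limited by having 3 arrays. In the platform annotation 31465 features had 1 symbol, 0 had several and 31511 were unnamed here. Names were updated by RefSeq accession (29036), current symbol (2075) or synonym (349), and 5 were kept. The RefSeq table (GRCm38.p6) served for names and gene order. Features of a gene were averaged. Gene means were tested against 0 with limma 3.58.1 (R 4.3.3, lmFit and eBayes, two-sided, Benjamini-Hochberg over 20738 genes). If 1 wild-type RNA served all arrays, the spread among wild-type animals does not enter this test, and the labels do not settle this. The procedure was tested on simulated data. Promoters are RefSeq's of GRCm38.p6. Members and lists were chosen with earlier results of these data known. Named were all members, in each pathway list up to 4 genes and in each marker list up to 2 genes with the smallest p and any past the threshold, Sox4, 5 measured neighbours of Pnp2 on each side and its 5 nearest genes by ratio. Apoa4, Apob, Apoa1, Fabp4, Pparg, Cidec, Lep, Lipe, Hba-a1, Hba-a2, Alas2, Slc4a1, Lct, Cd79a, Cd4, Cd3e, Ms4a1, Pcna and Mcm6 were named after their values were seen. Tables were made with pandas 2.3.3 under Python 3.11.15, and figures with matplotlib 3.10.9. Alternatives were the median over features, centring, quantile normalization, unedited symbols, robust eBayes, single features and leaving out each array.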

Additional observations from a re-analysis of the deposited data

How the results depend on the processing

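Limma called 0 genes of the related lists under each of the 9 alternatives run. In the simulated data it called 0% of genes changed by a log2 size of 0.5 and 30% at 1.0. Means of the related lists ran from -0.80 to 0.74, so 0 calls do not show that these genes were unchanged. The count of called genes among the 10 was 1 throughout, which the choice of Pnp2 by its ratio makes no sign of stability. The mean of Pnp2 lay between -3.48 and -3.25 with 1 array left out and between -3.35 and -3.33 under the other settings. The 40 means of the 10 genes under settings that keep all arrays lay within 1 SD of the value reported. Most of them could hardly move. A median over 1 or 2 features equals their mean, unedited symbols gave the same values, and array medians were already near 0. This is therefore no sign of stability. Leaving out 1 array moved Nt5e between -1.47 and -0.49 and Ada between -0.25 and 0.25, and Ada, at -0.01 as reported, was 0.01 after quantile normalization. Over all genes, the count of calls ran from 4 to 66 with 1 array left out (0 to 18 higher, 4 to 48 lower), with 10 without array 1, 66 without array 2 and 4 without array 3. The cause was not tested. Each ratio sets knockout against wild-type RNA on the same array, so the test against 0 already pairs them by array. No further pairing was made. Without intensities, a low ratio near background cannot be recognised.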
